A study of Mus musculus with 2 samples.

Results

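A set of 10 genes of alternative macrophage activation was compared between bone marrow cells cultured with M-CSF alone (M) and bone marrow cells cultured with M-CSF and RANKL (MR). The members were chosen by name and are Il4ra, Stat6, Pparg, Socs3, Arg1, Arg2, Nos2, Clec10a, Chil3 and Retnla. They are set beside 13449 genes, out of 14870 with an assembled locus in at least 1 library. Both cultures came from wild-type mice and began with 2 days in M-CSF, and RANKL was then added together with M-CSF in MR for 2 days according to the labels, whereas the culture method of the study gives a longer period with RANKL. RNA of each culture was sequenced as 1 library, so that there was no replicate check and every difference describes these libraries. The strain, age and number of mice were not given in the sources used here, and neither a sort nor the day of harvest is described in them.

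Alternative activation is the state that macrophages take up in response to IL-4 and IL-13. Both cytokines signal through the IL-4 receptor alpha chain, encoded by Il4ra, and Janus kinases to the transcription factor Stat6, which drives target genes such as Arg1, Chil3, Retnla and Clec10a. Pparg is a lipid-sensing nuclear receptor that takes part in this program, and arginase (Arg1 and Arg2) and inducible nitric oxide synthase (Nos2) use the same substrate, arginine. M-CSF supports macrophages and their precursors, and RANKL directs these precursors to bone-resorbing osteoclasts.

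The deposited tables list loci that StringTie assembled from the reads, 19422 in M and 19922 in MR. Their positions, like all positions below, are on GRCm38, and each locus was given to the GENCODE vM21 gene with which it shared most exon bases. TPM, a level per transcript length scaled to 1000000 over the assembled loci of a library, was summed over the loci of a gene. The log2 ratio compares MR with M after 1 is added to either TPM, and a gene with no locus was set to 0. No locus means that no transcript was assembled there, not that no read was present. Aligned bases were 3.63 Gb in M and 2.98 Gb in MR. The cell labels were checked by markers. Summed TPM of 9 osteoclast markers, including Ctsk and Acp5, was 126 in M and 24993 in MR, and that of 6 macrophage markers was 21286 in M and 7802 in MR. Most of the macrophage sum was Lyz2, in a shared locus, with 16035 TPM in M and 4535 TPM in MR. Adgre1, Mertk and Fcgr1 were also lower in MR by more than 1 on the log2 scale, whereas the log2 ratio was −0.26 for Cd68 and 0.32 for Csf1r, the M-CSF receptor. Neutrophil markers, 9 of 9 with a locus, summed to 1379 in M and 963 in MR. In bulk RNA, fewer cells of a type and less RNA per cell cannot be told apart. The part of these markers in the values below was not tested.

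Of the 10 members, 9 had a locus of their own in at least 1 library and 6 had one in both. Chil3 had its own locus in MR but lay in a shared locus in M, which left 8 members to compare. Of these 8, 3 were lower in MR by more than 1 on the log2 scale (Il4ra, Pparg and Arg1) and 1 was higher (Socs3). Over the 13449 genes compared, all with a locus of their own, 13.2% were lower and 21.3% were higher by more than 1. In either direction, 34.5% passed. Arg1 and Socs3 passed only because 1 library had no locus. With a locus in both libraries, 2 of 6 members were lower and 0 were higher, beside 9.4% and 15.3% of 11703 genes, and 24.7% in either direction. The log2 ratio was below 0 for 5 of these 6 members, and the median over the 8 members was −0.41, whereas the median over all genes compared was 0.21.

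**Figure D1:**
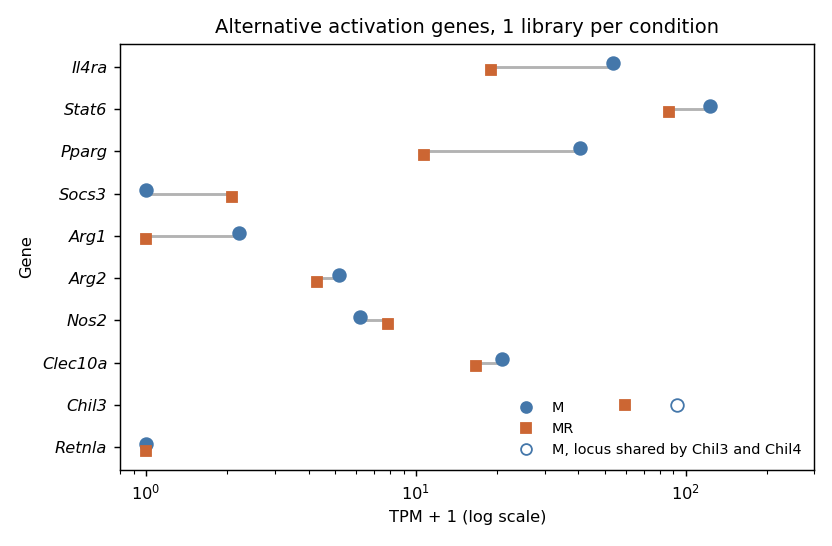
Level of each member in M (circles) and MR (squares), as TPM plus 1 on a log axis, with 1 library per condition. Il4ra, Stat6 and Pparg lie further right in M, and the open circle marks the locus of M with a TPM of 91.5 that Chil3 shares with Chil4. A point at 1 has no locus.

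Il4ra, the receptor chain shared by IL-4 and IL-13, had 52.6 TPM in M and 17.9 TPM in MR. The level in M was 2.94 times that in MR, with a log2 ratio of −1.50. The counting interval at 95% was −1.68 to −1.32, from an estimated 1050 read pairs of M and 276 of MR. Read pairs were estimated from the listed coverage, and such intervals cover counting error only, not the spread between cultures. Each interval of a TPM ratio takes its width from the read pairs and was moved onto that ratio, even where the read pairs gave another. A lower log2 ratio than that of Il4ra was found for 7.03% of the genes compared. Il4ra (chr7:125552120-125579474, plus strand) was a single locus in each library that covered 67.8% of its main transcript in M and 68.1% in MR, and its last 1542 annotated bases lay outside the locus in both.

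Stat6, the transcription factor activated by this receptor, had 122.4 TPM in M and 85.7 TPM in MR. Its log2 ratio was −0.51 (counting interval −0.60 to −0.42, about 2558 and 1423 read pairs). Stat6 (chr10:127642986-127660957, plus strand) had the highest TPM of the members in both libraries, and its single locus covered 99.2% of the transcript in M and 99.5% in MR. The end of Stat6 overlaps Nab2 on the opposite strand. The strandedness of the library kit was not stated, so that reads of overlapping genes on opposite strands cannot be told apart. This applies also to Il4ra with Gm44876, Pparg with Gm44079, and Arg2 with Gm48780 and Vti1b.

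The other genes of the receptor pathway that had a value lay on the same side of 0. Of 15 genes in the list, which includes Il4ra and Stat6, 11 had a value, and all 11 had a log2 ratio below 0, with a median of −0.55. Of these, 3 were lower by more than 1 and 0 were higher, beside 13.2% and 21.3% of all genes compared, whose median was 0.21. The ratios of Il13ra1, Irs2, Tyk2 and Jak1 lay between the quartiles of all genes, −0.42 and 0.84. Il2rg, the common gamma chain, had 463 TPM in M and 172 TPM in MR (log2 ratio −1.42), in a locus shared with another gene. Socs1, an inhibitor of Janus kinases, had 18.5 TPM in M and 6.42 TPM in MR (log2 ratio −1.39). The log2 ratio was −0.13 for Il13ra1, the IL-13 receptor chain that pairs with Il4ra. Among the kinases it was −0.34 for Jak1, −0.73 for Jak2, −0.55 for Jak3, whose locus is shared, and −0.25 for Tyk2. It was −0.23 for the adaptor Irs2 and −0.57 for the phosphatase Ptpn6. The cytokines Il4 and Il13, the decoy receptor Il13ra2 and the adaptor Irs1 had no locus in either library.

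**Figure D2:**
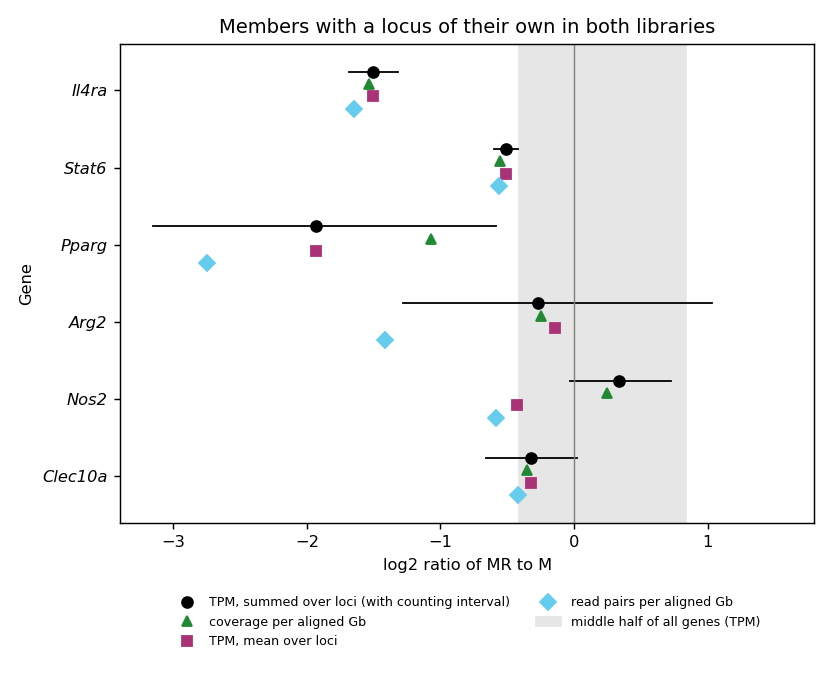
Log2 ratio of MR to M for the 6 members that had their own locus in each library, by 4 measures, with the counting interval of the TPM ratio as a line and the middle part of all genes, between the quartiles −0.42 and 0.84, as a grey band. Il4ra and Pparg lie left of the band by every measure, and the measures of Nos2 lie on both sides of 0. Coverage per aligned Gb has 1 added, which makes the ratio of Pparg smaller in size.

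Pparg, a nuclear receptor for fatty acids, was at 39.6 TPM in M and at 9.67 TPM in MR. M was 4.10 times MR, a log2 ratio of −1.93. A lower ratio was found for 4.28% of the genes compared. By the listed coverage, the read support was thin. The listed coverage of Pparg was 5.85 in M and 0.716 in MR, whereas the FPKM in the same entry corresponds to 66.6 and 12.8, so that the listed coverage was 8.78% and 5.59% of that value. A listed coverage under 50% of that value was found for 9.05% of 12714 loci with an FPKM above 1 in M and for 8.39% of 13342 in MR. The reason for this gap was not found. The level and the read support of Pparg thus rest on listed values that disagree, and which is right is not known. From the listed coverage, an estimated 34 read pairs of M and 4 of MR lay on the Pparg transcript. Moved onto the TPM ratio, they give a counting interval of −3.15 to −0.58. Coverage per aligned Gb was 1.61 in M and 0.240 in MR. Its log2 ratio was −2.75 as such and −1.07 with 1 added to these low values. Read pairs, which rest on the same coverage, gave −2.75 per aligned Gb. Pparg (chr6:115360951-115490399, plus strand) was a single locus in each library.

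Of 24 genes listed as PPAR partners and targets, 21 were compared. In MR, 5 were higher by more than 1 and 5 were lower, beside 21.3% and 13.2% of all genes compared. The median was −0.27, and that of all genes compared was 0.21. Of the 5 higher genes, 2 had no locus in M. The 3 lowest ratios among genes at 10 TPM or more were those of lipid uptake and binding genes. Cd36, a scavenger receptor, had 513 TPM in M and 48.96 TPM in MR (log2 ratio −3.36). The fatty acid binding proteins Fabp4 and Fabp5 had 109.8 and 2114 TPM in M against 23.9 and 556 TPM in MR. Ppargc1b, a coactivator, had 3.85 TPM in M and 30.7 TPM in MR (log2 ratio 2.71). The partner receptors did not share a direction. Rxrb had 31.8 TPM in M and 90.6 TPM in MR (log2 ratio 1.48), whereas Rxra had 42.04 TPM in M and 12.54 TPM in MR (log2 ratio −1.67). The liver X receptor gene Nr1h3 was covered by the locus of a neighbour and got no value.

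Socs3, an inhibitor of cytokine signalling through STAT3, had no locus in M and a TPM of 1.09 in MR. The locus of MR covered 56.1% of the transcript at a coverage of 1.44, about 7 read pairs, so that no ratio is given. Socs3 lies at chr11:117966079-117970047 on the minus strand. Some loci were listed at lower levels, with 5% of loci at a TPM below 0.148 in M and below 0.239 in MR. The level of Socs3 in MR is low all the same, and the reason for the missing locus in M was not tested. In the list of 21 genes of the SOCS family and the gp130 pathway, 19 were compared, with a median of −0.34. In MR, 3 were higher by more than 1 and 4 were lower, beside 21.3% and 13.2% of all genes compared. Of the 3 higher genes, 2 had no locus in M. Socs2 had 1.31 TPM in M and 11.6 TPM in MR (log2 ratio 2.45). The receptor genes Csf3r and Il10ra had 117.4 and 64.5 TPM in M against 15.3 and 13.7 TPM in MR. Il10rb, in a shared locus, had 447 in M and 135.6 in MR.

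Arg1, the cytosolic arginase and a main marker of alternative activation, had a value in M only. Its TPM was 1.22 in M, from about 5 read pairs at a coverage of 2.04, and it had no locus in MR. The locus of M covered 51.9% of the transcript and left the last 1133 bases of the gene uncovered. No ratio is given, since the lower level in MR rests on a few read pairs in M. Arg1 lies at chr10:24915221-24927484 on the minus strand.

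Arg2, the mitochondrial arginase, had 4.19 TPM in M and 3.31 TPM in MR (log2 ratio −0.27, counting interval −1.28 to 1.04, about 13 and 4 read pairs). The interval, which was moved onto the TPM ratio, included 0. In both libraries Arg2 (chr12:79130777-79156301, plus strand) was assembled as 2 fragments, with a TPM of 2.58 and 1.61 in M and of 1.36 and 1.94 in MR. The first fragment began 42 bases after the annotated start in M and 16968 bases after it in MR. Read pairs per aligned Gb gave a log2 ratio of −1.42 (counting interval −2.96 to 0.13). The fragment with the most exon bases gave 0.17, so that no direction was settled. The coding sequences of Arg1 and Arg2 were identical at 58.0% of aligned positions.

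Nos2, which makes nitric oxide from arginine and is a marker of classical activation, had 5.22 TPM in M and 6.87 TPM in MR. The log2 ratio of 0.34 came from summing fragments. Its counting interval of −0.03 to 0.72 was moved onto this ratio and does not overlap the interval from read pairs given below. In M, Nos2 (chr11:78920787-78960254, plus strand) was 1 locus over 97.6% of the transcript. In MR it was 2 fragments with a TPM of 3.08 and 3.79, each below the level of M. With the larger fragment alone the log2 ratio was −0.38, with the mean over fragments it was −0.43, and with read pairs per aligned Gb it was −0.58 (counting interval −0.999 to −0.13, about 119 and 66 read pairs). The direction for Nos2 therefore changed with the way fragments were combined.

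**Figure D3:**
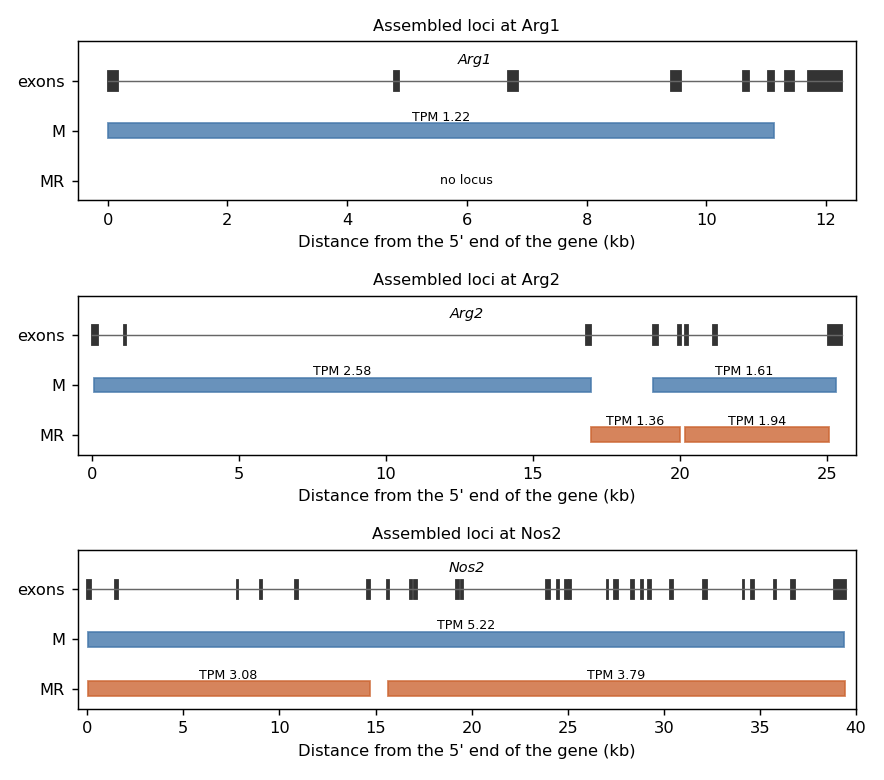
Assembled loci at Arg1, Arg2 and Nos2 in M and MR, as bars labelled with their TPM, along the distance from the start of each gene in kb, with annotated exons in black. Arg1 has no bar in MR, Arg2 has 2 fragments in each library, and Nos2 is whole in M and split in MR.

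Of 31 genes of arginine, polyamine and nitric oxide metabolism, 27 were compared, with a median of 0.38. In MR, 9 were higher by more than 1 and 4 were lower, beside 21.3% and 13.2% of all genes compared. Of the 9 higher genes 2 had no locus in M, and of the 4 lower genes 2 had no locus in MR. The highest ratios among genes at 10 TPM or more were those of Slc7a1, an arginine transporter (TPM 9.85 in M and 40.2 in MR, log2 ratio 1.92), Sms, spermine synthase (18.8 and 55.2, log2 ratio 1.50), and Aldh18a1, which makes a proline precursor (8.26 and 24.7, log2 ratio 1.47). Lower in MR were Paox, a polyamine oxidase (31.9 and 7.12, log2 ratio −2.02), and Ass1, which resynthesizes arginine from citrulline (142.2 and 52.2, log2 ratio −1.43).

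Clec10a, a galactose-binding lectin of macrophages and dendritic cells, had 19.9 TPM in M and 15.8 TPM in MR. The log2 ratio was −0.32 (counting interval −0.66 to 0.02, about 160 and 98 read pairs), so that the interval included 0. From read pairs per aligned Gb it was −0.42, with an interval of −0.79 to −0.06. Clec10a (chr11:70156197-70170834, plus strand) was a single locus in each library that began 10443 bases after the annotated start in M and 10472 bases after it in MR, and covered 98.5% and 97.1% of the main transcript. Its coding sequence was identical to that of the neighbouring lectin gene Mgl2 at 84.0% of aligned positions. Of 6 dendritic cell markers, 4 were compared, and these 4 summed to 15.5 TPM in M and 20.8 TPM in MR. Cd209a had no locus.

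Chil3 encodes a chitinase-like protein that is abundant in alternatively activated macrophages, and its paralog Chil4 lies next to it on the minus strand. In MR, Chil3 (chr3:106147554-106167564) had a locus of its own with a TPM of 58.4 at a coverage of 77.5, from about 387 read pairs, and Chil4 had no locus. In M, a single locus of 71918 bases (chr3:106147548-106219465) with a TPM of 91.5 and a coverage of 148.2 extended over both genes. It was given to Chil4, which had the most exon bases in it, and Chil3 has no value of its own in M. The level of the shared locus cannot be divided between the genes, and no ratio is read from it for either gene. In the gene lists, Chil4 is counted with the level of the whole locus, and those counts are also given without it. The coding sequences of Chil3 and Chil4 were identical at 94.4% of aligned positions, 1139 of 1206. The longest identical run was 136 bases, shorter than a read of 150 bases, and 0 of 1045 windows of 150 bases of the Chil3 coding sequence occurred in Chil4, whereas 237 of 1145 windows of 50 bases did. The 60 bases that differ most between the genes, shown because reads across them belong to 1 gene only, lie in exon 6 of 11 of either transcript, at chr3:106155714-106155773 for Chil3 and chr3:106206041-106206100 for Chil4 (GRCm38, minus strand). Capitals mark the 10 positions that differ.
Chil3: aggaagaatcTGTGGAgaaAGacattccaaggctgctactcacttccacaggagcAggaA
Chil4: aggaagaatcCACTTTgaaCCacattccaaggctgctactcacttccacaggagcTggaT

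**Figure D4:**
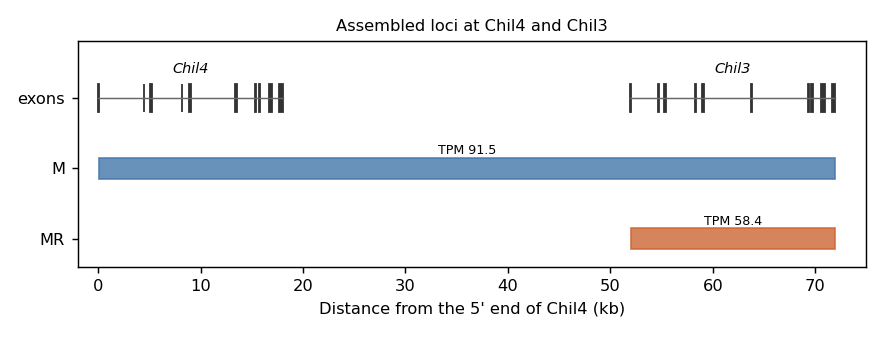
Assembled loci at Chil4 and Chil3 in M and MR, as bars labelled with their TPM, along the distance from the start of Chil4 in kb, with annotated exons in black. The locus of M spans both genes, and that of MR spans Chil3 alone.

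Retnla, which encodes a resistin-like secreted protein of alternatively activated macrophages, had no locus in either library. Retnla lies at chr16:48842551-48844461 on the plus strand. Of the 10 genes of the Chil and Retn families outside the members, 6 had no locus, and 3 had a value apart from Chil4. Retnlg, a resistin-like gene of neutrophils whose coding sequence was identical to that of Retnla at 71.3% of aligned positions, had 13.8 TPM in M and 10.4 TPM in MR. Chil1 had 3.92 TPM in M and 3.73 TPM in MR, and the lysosomal gene Ctbs had 26.1 in M and 21.0 in MR.

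The RefSeq table of promoters (GRCm38.p6) held windows for 6 of the 10 members, 8 windows in all, from 250 bases before to 50 bases after each start. Arg1, Arg2, Nos2 and Clec10a were not in it. The windows were searched on both strands for 4 motifs. These were TTC and GAA with NNNN between them, the spacing that STAT6 prefers, TTC and GAA with NNN between them, the spacing of other STAT factors, TTNNGNAA, a form of the C/EBP consensus, and AGGTCA repeated after 1 base, the element bound by PPAR and RXR. Each motif was counted separately, also where matches overlapped. Of 32851 windows of this length, 6.95%, 8.30%, 40.7% and 0.0396% held them. Retnla alone among the members had the STAT6 spacing, from 145 to 136 bases before its start. Chil3 had TTCTTAGAA from 172 to 164 bases before its start, Chil4 had the same letters from 200 to 192 bases, and Socs3 had them from 154 to 146 bases. Il4ra, Stat6 and the 3 windows of Pparg had neither STAT spacing, and no member had the PPAR repeat. The C/EBP form occurred 3 times each in Chil3, Chil4 and Retnla and 2 times in 1 window of Pparg. A match describes letters, not binding. The 250 bases before the start are printed for the chitinase-like pair, because 1 locus of M runs over both genes, and for Retnla, because it has the STAT6 spacing. Capitals mark the STAT spacing. Their positions are chr3:106167565-106167814 (minus strand) for Chil3, chr3:106219480-106219729 (minus strand) for Chil4 and chr16:48842359-48842608 (plus strand) for Retnla.
Chil3: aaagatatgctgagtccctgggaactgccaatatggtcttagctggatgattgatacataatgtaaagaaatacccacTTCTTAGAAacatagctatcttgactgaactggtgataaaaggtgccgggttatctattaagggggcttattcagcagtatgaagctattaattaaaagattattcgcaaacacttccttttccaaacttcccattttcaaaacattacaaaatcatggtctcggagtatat
Chil4: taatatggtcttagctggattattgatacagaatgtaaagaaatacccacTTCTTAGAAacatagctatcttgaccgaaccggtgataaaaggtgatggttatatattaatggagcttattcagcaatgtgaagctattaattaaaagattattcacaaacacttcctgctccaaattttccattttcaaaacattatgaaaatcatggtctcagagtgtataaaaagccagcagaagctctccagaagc
Retnla: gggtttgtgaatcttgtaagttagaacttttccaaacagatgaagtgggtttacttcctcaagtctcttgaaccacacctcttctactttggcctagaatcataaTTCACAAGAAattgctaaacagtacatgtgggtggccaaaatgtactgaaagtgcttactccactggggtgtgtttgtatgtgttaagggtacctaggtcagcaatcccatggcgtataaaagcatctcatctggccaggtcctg

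The members were set beside other targets of IL-4. Of 28 such genes, 25 were compared, with a median of 0.11. In MR, 6 were higher by more than 1 and 8 were lower, beside 21.3% and 13.2% of all genes compared. Of the 6 higher genes 2 had no locus in M, and of the 8 lower genes 3 had none in MR, Chil4 among them, whose level in M is that of the locus shared with Chil3. Without Chil4, 24 were compared, 7 were lower and the median was 0.31. Mrc1, the mannose receptor, had 47.9 TPM in M and 11.8 TPM in MR (log2 ratio −1.94). Ch25h, which makes 25-hydroxycholesterol, had 46.2 in M and no locus in MR. Among the higher genes, Dcstamp, a cell fusion gene of osteoclasts, had no locus in M and a TPM of 280 in MR. Matk, a kinase of blood cells, had 2.27 in M and 80.3 in MR, and Myc had 3.92 in M and 40.1 in MR.

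Classical activation genes, which IFN-gamma and bacterial products induce, were compared last. Of 22 genes in this list, which does not include Nos2, 19 were compared, with a median of −1.23. In MR, 12 were lower by more than 1 and 1 was higher, beside 13.2% and 21.3% of all genes compared. Acod1, which makes itaconate, had 369 TPM in M and 33.1 TPM in MR (log2 ratio −3.44). Fpr2, a formyl peptide receptor, had 34.5 in M and 3.51 in MR, and Irf8, a transcription factor of monocytes, had 154.7 in M and 25.2 in MR. The 12 included 2 genes with no locus in MR, and the 1 higher gene, Ido1, had no locus in M.

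**Figure D5:**
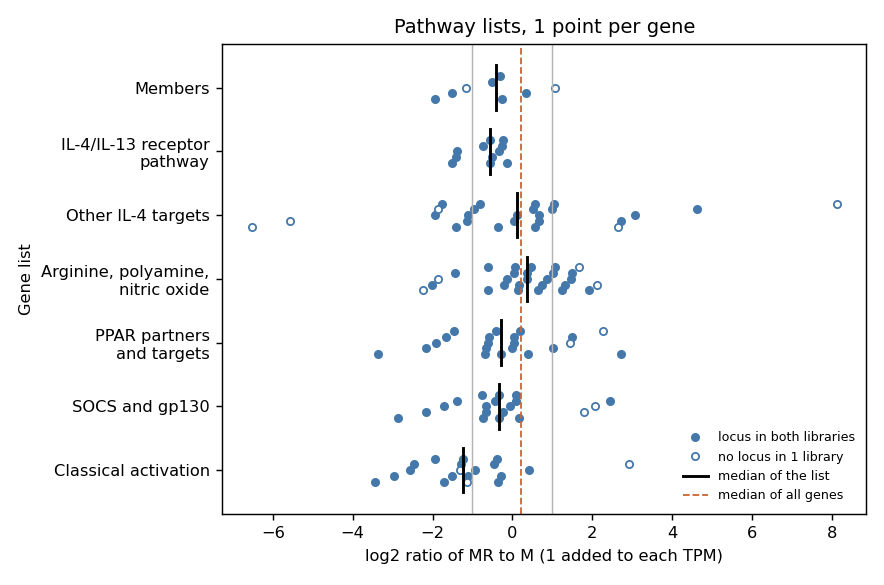
Log2 ratio of MR to M for each compared gene of the members and of 6 lists, with the median of each list as a black bar, the median of all genes (0.21) as a dashed line and a log2 ratio of 1 in either direction as grey lines. Open points have no locus in 1 library, and the leftmost is Chil4, at the level of the locus that it shares with Chil3. The receptor pathway genes all lie below 0, and the classical activation list has the lowest median, −1.23.

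Markers of other cells that can express the members were counted in the same way. Of 7 eosinophil markers, 4 were compared, and the list summed to 26.1 TPM in M and 28.8 TPM in MR. Siglecf, Il5ra and Ear6 had no locus. Of 6 mast cell and basophil markers, 3 were compared, with a sum of 8.71 in M and 4.40 in MR. Mcpt8 had 3.03 TPM in M and no locus in MR, Prss34 had 3.12 and 1.11, and Kit had 2.56 and 3.30. Cpa3, with 0.817 TPM in M and no locus in MR, was not compared, and Fcer1a and Ms4a2 had no locus. Of 6 stromal markers, 5 were compared, with a sum of 20.2 in M and 33.5 in MR. Among the T cell and innate lymphoid markers, Cd3e, Cd3g and Cd3d had no locus, and Il7r had 89.3 TPM in M and 10.5 TPM in MR. The only other marker compared, Rora, had 2.11 TPM in M and 4.13 TPM in MR. Both together summed to 91.5 in M and 14.6 in MR. The part of the markers of these cell types in the levels of the members was not tested.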

How the data were processed

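RNA of 1 library of M and 1 of MR was sequenced as paired reads of 150 bases. The authors trimmed adaptors with Trim Galore, aligned the reads with HISAT2 to GRCm38 (mm10) and assembled them with StringTie and GENCODE vM27, an annotation of GRCm39. Versions are not given in the sources used here. The deposited tables hold a coverage, an FPKM and a TPM for each entry, and no counts. The deposited TPM score sums to 1000000 over the assembled loci alone. Entries with gene names hold GRCm39 positions and were not used.

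An assembled locus went to the GENCODE vM21 gene with which it shared most exon bases (50 or more) on its strand, or on either strand where the locus had none. In this way 15665 loci of M (95.4% of TPM) and 16523 of MR (96.9%) were given to genes. Loci with 50% or more of the exon bases of a further coding gene were called shared, which held for 361 genes. Another 93 genes lay inside a locus of another gene, and 14416 had a locus of their own. Genes at 1 TPM or more in M, MR or both were compared, and a log2 ratio above 1 in either direction was counted. Shares and medians over all genes rest on the 13449 of these with a locus of their own. Counts and medians of the lists also include genes in shared loci. No p-value was computed, since each condition has 1 library. Aligned bases are the modal quotient of coverage and FPKM. Read pairs were estimated as listed coverage times the bases of the first-numbered GENCODE transcript in the locus, divided by 300, and gave Wilson intervals at 95%. This transcript was chosen after the data were seen. For a TPM ratio, the interval was scaled by the quotient of the TPM ratio and the read pair ratio. The assignment was tested on simulated data with a single, nearly whole locus per gene. Such data cannot show how merged or fragmented loci, like those of Chil3, Arg2 and Nos2, are handled.

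All 10 members were named, with the genes of the receptor pathway, genes that share a locus with a member and, in each other list, up to 3 of the highest and lowest ratios past 1 at 10 TPM or more. A gene that this rule names is not reported here. Ido1, Il7r, Nr1h3, Rxra, Retnlg, Chil1 and Ctbs were added after their values were seen, as were markers named beside a sum. The members and lists were chosen with earlier results of these data known. Promoters were taken from RefSeq. Software was Biopython 1.88, matplotlib 3.10.9, scipy 1.17.1, pandas 2.3.3 and numpy 2.4.6 under Python 3.11.15.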

Additional observations from a re-analysis of the deposited data

Results flagged for a closer look

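One assembled locus given to no gene lay within 5 kb of a member. It is a locus of the plus strand at chr12:79160494-79160798, 4193 bases past the end of Arg2 and inside Vti1b, which is on the opposite strand. It was picked out because no comparison uses it. Its TPM was 4.59 in MR and 2.15 in M, at a coverage of 6.08 and 3.61. Its part in the level of Arg2 was not tested.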

How the results depend on the processing

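Of 223 values under alternative settings, 204 stayed within the counting interval, the interval of the list median or, for counts, 1.5 times the main value. Several settings cannot change some values, such as a choice among loci for a gene with a single locus. The count of 204 includes these and is no measure of robustness. Of all values 5 changed sign. The log2 ratio of Arg2, −0.27, became 0.17 with the locus with the most exon bases, and the median of the other IL-4 targets, 0.11, became −0.02 with median-of-ratios scaling. The other 3 were those of Nos2, whose log2 ratio of 0.34 became −0.38 with the locus with the most exon bases, −0.43 with the mean over loci and −0.58 with read pairs per aligned Gb. Here the way fragments are combined is what changed. Over all settings the log2 ratio ranged from −1.69 to −1.50 for Il4ra, −0.70 to −0.51 for Stat6, −2.75 to −1.07 for Pparg (−2.11 to −1.87 without the measures from coverage, of which −1.07 has 1 added to values of 1.61 and 0.240), −0.50 to −0.32 for Clec10a, −1.42 to 0.17 for Arg2 and −0.58 to 0.39 for Nos2. A TPM of at least 10, FPKM, coverage per aligned Gb and a locus in both libraries each changed the counts of members. Under each, members higher by more than 1 fell from 1 to 0 and members lower fell from 3 to 2. With a log2 threshold of 2, both counts were 0. Over all genes, 2858 higher became 1599 with a TPM of at least 10, 956 with a log2 threshold of 2 and 1793 with a locus in both libraries, and 1781 lower became 981, 520 and 1100. Median-of-ratios scaling moved the median log2 ratio of all genes by −0.18, and the share of higher among called genes was 53.0% instead of 61.6%. Without Chil4 the median of the other IL-4 targets was 0.31. Lists without Chil4, coverage without the added 1, a locus in both libraries, the mean over loci and read pairs per aligned Gb were chosen after the data were seen. No paired analysis was possible because each condition has 1 library, and no replicate could be left out. Depth limits Arg1, Arg2, Socs3 and Pparg most, each with fewer than 50 read pairs in either library as estimated from the listed coverage. For Pparg the FPKM corresponds to a higher coverage.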
